A study of Caenorhabditis elegans with 33 samples.

Results

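Adult worms that had eaten ycdC mutant bacteria were compared with worms that had eaten BW25113, and their mRNA levels were described across all genes. The comparison takes the 3 libraries titled ycdC and the 3 titled BW25113, 6 of the 33 libraries in the series. The other 27 come from worms on 9 further mutant diets and serve here for the estimate of spread and for 1 added contrast. All animals were Caenorhabditis elegans of the wild-type strain N2, collected as synchronized adults, and RNA was taken from the whole body with Trizol and sequenced on a DNBSEQ instrument. BW25113 is a laboratory strain of Escherichia coli and was the diet of the control group. The labels do not state the kind of ycdC mutation, the age of the adults in days, how many animals went into a library or whether libraries keep the strand. They also do not state whether replicates were separate cultures, and a p-value here measures the spread between libraries, part of which may be technical. No bacterial reads were analysed here, and the mutation was therefore not checked. The series title places the study in the field of gut bacterial genes and social behavior of the host.

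The bacterial gene ycdC is also known as rutR. In E. coli it encodes a repressor of the TetR family that binds uracil and controls genes for the use and synthesis of pyrimidines. The worm takes up bacterial nucleotides, vitamins and other metabolites with its food, and its intestine, epidermis and germline answer to the quality of that food. The epidermis secretes a cuticle made largely of collagens, of which the adult form is laid down at the last molt, while the intestine makes yolk proteins and digestive proteases.

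The 6 libraries held 22.0 M to 22.7 M (M, 1e6) estimated read counts each, close to the top of the series range of 20.5 M to 22.7 M. Of 18811 genes, 14696 passed a filter on low counts and were tested, and the 4115 left out held 0.0197% of all counts. Levels are given as CPM, counts per 1e6 after scaling the library sizes by TMM (trimmed mean of M values). The markers of germline, oocyte, sperm, intestine, epidermis, body wall muscle, pharynx muscle, neurons and embryo that are in the files were all above 0 in at least 1 of the 6 libraries.

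The 3 ycdC libraries did not look alike. The 50 most abundant genes held 26.0%, 21.7% and 29.0% of the counts in ycdC replicates 1, 2 and 3, against 32.3%, 33.0% and 33.3% in BW25113. The means were 25.6% ± 3.63 and 32.9% ± 0.541 (SD, n = 3 each; two-sided exact permutation p = 0.1, the smallest that 3 against 3 allows). Replicate 2 stood furthest apart, with 808 genes more than 2-fold below each of the other 5 libraries. Replicate 1 had 73 such genes and replicate 3 had 9. Across genes, log2 CPM of ycdC replicate 3 correlated with the 3 BW25113 libraries at Pearson r between 0.968 and 0.979, and with ycdC replicates 1 and 2 at 0.946 and 0.931 (genes are not independent replicates). The TMM factors followed the same division, at 1.25 and 1.59 in ycdC replicates 1 and 2, 0.789 in ycdC replicate 3, and 0.731 to 0.861 in BW25113.

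These differences ran along gene level and, in replicate 2, along transcript length. Among the 321 genes over 500 CPM, the median log2 difference from the BW25113 mean was -0.89 in ycdC replicate 1, -1.38 in replicate 2 and 0.04 in replicate 3. Among the 922 genes between 100 and 500 CPM it was -0.54, -1.09 and 0.19. The shortest 10% of genes, with exonic lengths of 81 to 575 bases, stood at 0.45 in ycdC replicate 2, and the longest 10%, of at least 3097 bases, at -0.98. In ycdC replicates 1 and 3 the longest 10% stood at -0.02 and -0.15, and in BW25113 replicates 1 and 3 at -0.28 and 0.31. Neither trend was particular to ycdC. By diet mean, the same 321 genes had a median of -0.80 in ycdC, -0.78 in purH and -0.75 in yghZ. It was below 0 in every mutant diet, and nearest to BW25113 in yjgU (-0.17). All diets were set against the same 3 BW25113 libraries, which also entered the choice of the 321 genes. The shared sign is therefore not independent between diets. The median of the longest 10% minus that of the shortest was -0.56 in ycdC, -0.80 in torY, -0.72 in yccU and -0.59 in purH. In iaaA it was 0.18. The part of this library structure in the results that follow was not tested.

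**Figure D1:**
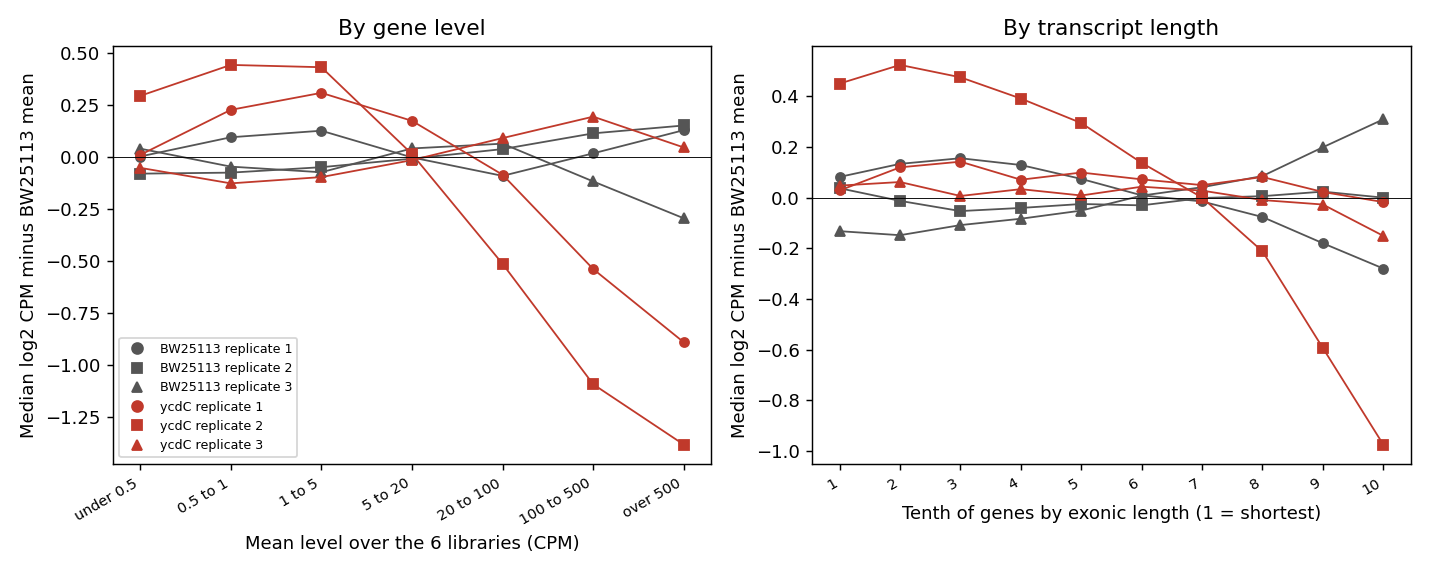
Median log2 CPM of each library minus the mean of the 3 BW25113 libraries, over genes grouped by mean level (left, in CPM) and by exonic length (right, in 10 equal groups from shortest to longest). Grey points are BW25113 and red points ycdC libraries: replicates 1 and 2 of ycdC drop to -0.89 and -1.38 for genes over 500 CPM while replicate 3 stays at 0.04, and the drop with length is steepest in replicate 2.

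No gene was called different between the ycdC and BW25113 diets: edgeR's quasi-likelihood test called 0 of 14696 genes at a Benjamini-Hochberg adjusted p under 0.05, which is 0%. The lowest adjusted p was 0.744, and it is shared by most genes named below. At an unadjusted p under 0.05, 630 genes were higher on ycdC (4.29%) and 52 were lower (0.354%). DESeq2 also called 0 genes, with 779 at an unadjusted p under 0.05. The median standard error of a log2 fold change was 0.48 and the biological coefficient of variation was 44.5%. Leaving out 1 library moved the 682 genes at an unadjusted p under 0.05 to 128 without ycdC replicate 2, 319 without BW25113 replicate 2, 347 without BW25113 replicate 3 and 2528 without ycdC replicate 3. Without ycdC replicate 3, 1 gene was called, ubh-2, a ubiquitin C-terminal hydrolase. It stood at 9.97, 10.8 and 9.35 CPM in BW25113 and at 1.43 and 0.201 in ycdC replicates 1 and 2 (log2 fold change -3.64, SE 0.58, edgeR adjusted p = 0.0157), but at 12.9 in replicate 3.

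With no calls, genes are described by whether the 3 ycdC libraries overlapped the 3 BW25113 libraries. A gene without overlap has a two-sided exact permutation p of 0.1, the smallest that 3 against 3 allows. Diets that do not differ would therefore also give such genes. In 871 genes (5.93%) every ycdC library lay above every BW25113 library, and in 298 (2.03%) every one lay below. Both shares differed with exonic length. Among the shortest 10% of genes 8.87% lay higher and 1.43% lower, and among the longest 10% 0.617% and 4.11%. The shares of lists given below are set beside all genes and not beside genes of like length. Leaving out any 1 library asks for the separation of only 5 values, and the counts then ran from 1055 to 3947 higher and from 499 to 2664 lower, with both maxima without ycdC replicate 3. With no scaling factors, the median log2 fold change of all genes moved from 0.09 to 0.71, and 1992 genes lay higher and 48 lower.

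The genes that lay lower on ycdC included many cuticle collagens, the structural proteins of the worm's outer coat. Of 155 collagens tested, 24 were lower in all 3 ycdC libraries without overlap (15.5%, against 2.03% of all genes) and 0 were higher (0%, against 5.93%). None was called, and 7 were lower and 0 higher at an unadjusted p under 0.05, beside 0.354% and 4.29% of all genes. The list's median log2 fold change was -0.17, beside 0.09 for all genes. The mean log2 difference of the list from the BW25113 mean was -0.662, 0.275 and -0.381 in ycdC replicates 1, 2 and 3. Over the whole list, replicate 2 thus lay on the other side. When ycdC replicate 3 was left out, 34 collagens were lower (21.9%, against 18.1% of all genes) and 14 were higher (9.03%, against 26.9%). With no scaling factors, 12 were lower (7.74%, against 0.327%) and 0 higher (0%, against 13.6%).

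The difference lay in the abundant collagens. Among the 24 collagens with a mean over 500 CPM, 17 were lower without overlap (70.8%), against 13 of 297 other genes at that level (4.38%) and 7 of the 131 less abundant collagens (5.34%). The division at 500 CPM was chosen after the values were seen. The mean was taken over the same 6 libraries, so a gene could pass through high values in BW25113 alone. This selection bears on the signs and counts of the 24 and the 297, and its part was not tested. All 24 had a log2 fold change below 0, with a median of -0.98, beside -0.64 for the other 297 genes. With no scaling factors, 10 of the 24 (41.7%) and 11 of the 297 (3.70%) were still lower without overlap, and without ycdC replicate 2, 17 (70.8%) and 13 (4.38%) were. Without ycdC replicate 3 the contrast with other abundant genes shrank, to 22 of 24 (91.7%) and 234 of 297 (78.8%), and without BW25113 replicate 3 it stood at 18 of 24 (75%) and 139 of 297 (46.8%).

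col-19, a collagen of the adult cuticle (chromosome X, 421707 to 422691, in WBcel235), stood at 4352, 4659 and 5540 CPM in BW25113 and at 1918, 2134 and 2842 in ycdC. All 3 ycdC values lay below the lowest control (log2 fold change -1.08, SE 0.47). col-80 (II, 10707201 to 10708287) stood at 6338, 6831 and 8021 CPM in BW25113 and 2131, 2245 and 4167 in ycdC (-1.31, SE 0.54). For both genes ycdC replicate 3 was the highest of its group and came nearest to the controls.

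col-124 (IV, 10216451 to 10217617) ran from 9208 to 16940 CPM in BW25113 and from 4309 to 7229 in ycdC (-1.25, SE 0.53). col-140 (V, 5835855 to 5836834) ran from 9917 to 12713 CPM in BW25113 and from 4362 to 6692 in ycdC (-1.12, SE 0.51). The authors' deposited TPM values divide by transcript length and do not use the TMM factors. In TPM, col-140 stood at 8937 to 9572 in BW25113 and 5452 to 6859 in ycdC, and col-19 at 2444 to 4016 and 1739 to 2236. Neither gene's groups overlapped in TPM. Many collagen genes are close copies of each other, and the sources do not say how the authors' counting divided reads between them, so values of single members are uncertain.

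**Figure D2:**
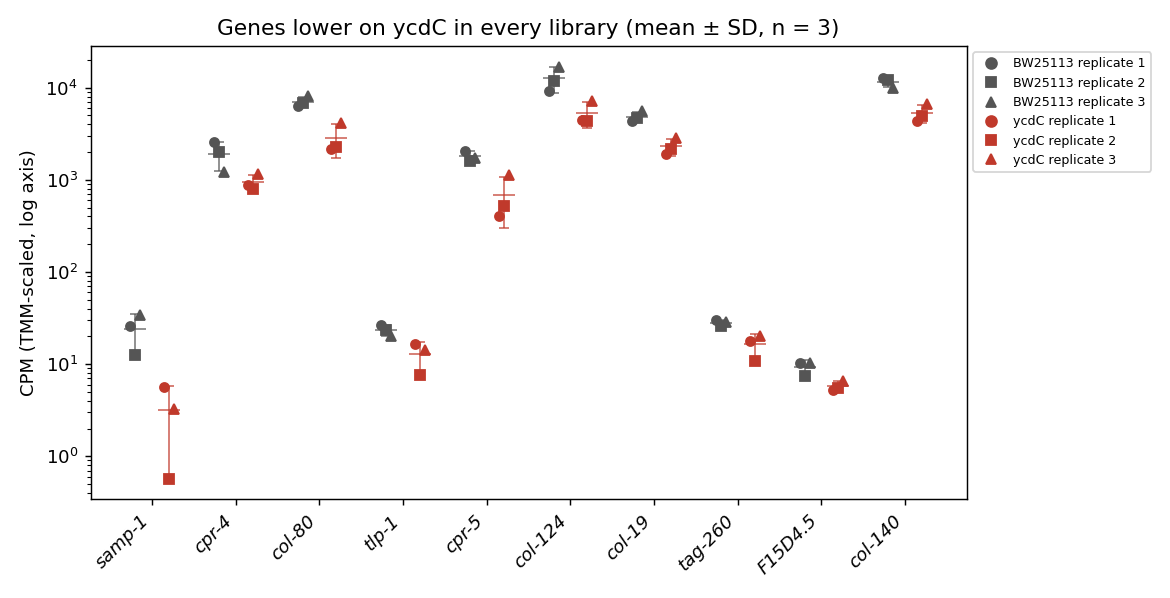
Level in CPM (log axis) of the 10 genes with the lowest p among those lower on ycdC, in each of the 3 BW25113 (grey) and 3 ycdC (red) libraries, with mean and SD. The groups do not overlap in any of the 10, which the choice of genes demanded; for the 4 collagens, ycdC replicate 3 (triangle) is the highest ycdC library.

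The summed level of the 24 abundant collagens was 103795, 106282 and 123665 CPM in BW25113 and 45681, 43952 and 74335 CPM in ycdC. Across the 11 diets the ycdC mean was the lowest, at 54656 ± 17064 CPM (SD, n = 3). The next diet in order was crl, at 65283 ± 13911 CPM (SD, n = 3), whose lowest and middle libraries lay within the range of ycdC. The highest was yjgU, at 134602 ± 20941 CPM (SD, n = 3), and in 8 of the 9 other mutants the lowest library lay below the lowest BW25113 library. The lowest purH library stood at 23506 CPM, below every ycdC library.

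**Figure D3:**
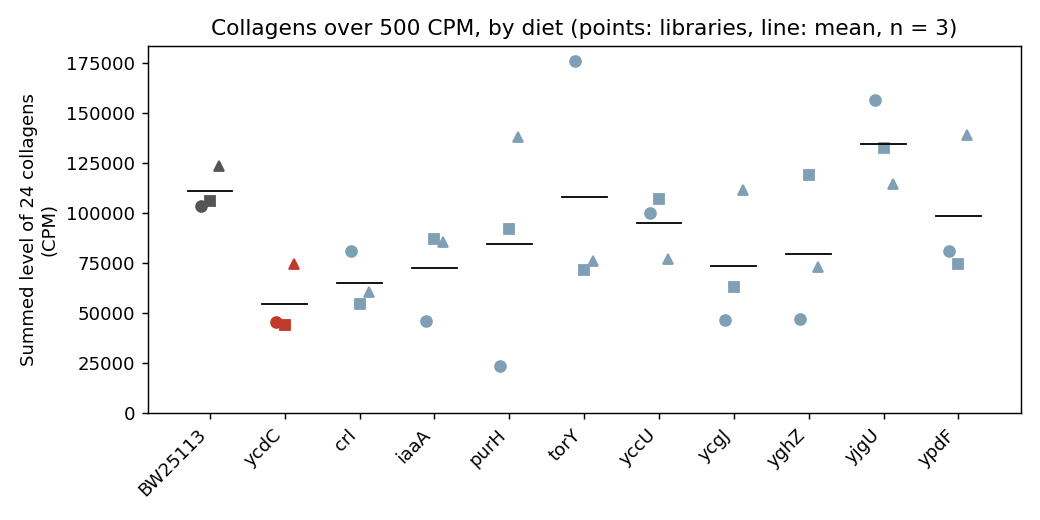
Summed level, in CPM, of the 24 collagens with a mean over 500 CPM in the 6 ycdC and BW25113 libraries, for each of the 33 libraries by diet (points) with the mean of 3 (line). The ycdC libraries, at 45681, 43952 and 74335 CPM, lie below the BW25113 libraries, and the ranges of several other diets overlap both.

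A pair of cathepsin B-like cysteine proteases, cpr-4 and cpr-5, also lay lower on ycdC. cpr-5 (V, 1132598 to 1134036) stood at 2066, 1606 and 1734 CPM in BW25113 and 409, 521 and 1127 in ycdC (log2 fold change -1.39, SE 0.59). cpr-4 (V, 6614674 to 6615851) stood at 2554, 2007 and 1217 CPM in BW25113 and 869, 800 and 1156 in ycdC (-1.03, SE 0.41), so the lowest control and the highest ycdC value were close. The aspartyl protease gene asp-4 lay the other way, at 341, 304 and 187 CPM against 438, 520 and 397 (0.70, SE 0.27). Of 41 intestinal proteases and markers, 4 were lower and 1 was higher without overlap (9.76% and 2.44%, against 2.03% and 5.93% of all genes). The counts were 17 lower and 10 higher without ycdC replicate 3 (41.5% and 24.4%, against 18.1% and 26.9%). With no scaling factors, 1 was lower and 3 were higher (2.44% and 7.32%, against 0.327% and 13.6%). The other 2 of the 4 were elt-2, the GATA factor of the intestine, at 8.57 to 13.2 CPM in BW25113 and 4.13 to 8.04 in ycdC, and the esterase gene ges-1, at 19.7 to 19.9 and 13.4 to 18.7.

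The summed intestinal markers stood at 1154 to 1246 CPM in BW25113 and at 626, 409 and 1337 in ycdC replicates 1, 2 and 3. In whole animals, fewer cells of a type and less RNA per cell cannot be told apart. Body wall muscle markers summed to 4339 to 6708 CPM in BW25113 and 2338, 856 and 6464 CPM in ycdC. Oocyte markers summed to 3930 to 5691 CPM and to 3129, 1354 and 5497 CPM, and germline markers to 1620 to 2300 CPM and to 1052, 441 and 2288 CPM. For muscle, oocyte and germline markers replicate 3 lay within the control range, and replicate 2 was the lowest library for all 4 tissues. Sperm markers differed, with 656 to 1161 CPM in BW25113 and 125, 710 and 904 in ycdC, where replicate 1 was low. Neuron markers summed to 241 to 268 CPM in BW25113 and 189, 134 and 287 CPM in ycdC. Markers of molting larvae summed to 86.9 to 210.0 CPM and 90.6 to 191 CPM, and markers of embryos to 7.05 to 9.09 CPM and 10.9, 8.26 and 5.09 CPM, so the groups overlapped in both. How far these differences in tissue markers enter the results on single genes was not tested.

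The vitellogenins, which encode the yolk proteins that the intestine exports to oocytes, were lowest in ycdC replicate 2. vit-2 (X, 5101042 to 5106169) stood at 23022, 26733 and 25067 CPM in BW25113 and 16153, 4393 and 22369 in ycdC, just without overlap (log2 fold change -0.80, SE 0.60). In the deposited TPM values the vit-2 groups overlapped, at 3236 to 4547 in BW25113 and 1152 to 3899 in ycdC. vit-6 (IV, 8261157 to 8266459) stood at 20934, 23419 and 27842 CPM and at 16189, 4373 and 22000, and its groups overlapped (-0.76, SE 0.59). The other 4, vit-1, vit-3, vit-4 and vit-5, had log2 fold changes between -0.84 and -0.72, and their groups overlapped too. No member had an unadjusted p under 0.05. When either ycdC replicate 3 or BW25113 replicate 1 was left out, all 6 were lower without overlap (100%, against 18.1% and 8.09% of all genes). vit-3, vit-4 and vit-5 are near-identical copies, so reads may be shared among them.

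Of 78 ribosomal protein genes, 6 were higher and 5 lower without overlap (7.69% and 6.41%, against 5.93% and 2.03% of all genes), with a median log2 fold change of -0.68. The lower count moved with single libraries. It was 57 without ycdC replicate 3 (73.1%, against 18.1%) and 56 without BW25113 replicate 3 (71.8%, against 7.44%). Their summed level was 319341, 319831 and 210563 CPM in BW25113 and 144610, 128399 and 263150 CPM in ycdC, so the groups overlapped. rpl-25.1 stood at 1926, 1811 and 1528 CPM in BW25113 and 663, 650 and 1361 in ycdC, while rpl-29 stood at 458, 513 and 756 and at 851, 909 and 808. Of 32 histone genes, 6 were lower and 1 higher without overlap (18.8% and 3.12%, against 2.03% and 5.93%). The lower count was 15 without ycdC replicate 3 (46.9%, against 18.1%), 18 without BW25113 replicate 3 (56.2%, against 7.44%) and 2 with no scaling factors (6.25%, against 0.327%). The most abundant of the 6 was the linker histone gene hil-5, at 1196, 1503 and 1488 CPM against 521, 383 and 985 (-1.15, SE 0.59). The next, hil-2, stood at 190, 230.2 and 166 CPM against 124.5, 83.7 and 122 (-0.83, SE 0.52). The other 4, his-49, his-57, his-73 and hil-6, were under 8 CPM in every library, and replication-dependent histone genes are near-identical copies.

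The named genes lower on ycdC outside these groups were of low level. samp-1, whose human counterpart is a protein of the inner nuclear membrane, stood at 26.1, 12.6 and 34 CPM in BW25113 and 5.68, 0.574 and 3.24 in ycdC (-2.94, SE 1.09). tlp-1, a zinc finger factor of tail development, stood at 26.6, 23.6 and 20.2 CPM and at 16.6, 7.66 and 14.2 (-0.87, SE 0.37). F15D4.5 stood at 10.4, 7.48 and 10.2 CPM and at 5.29, 5.51 and 6.60 (-0.69, SE 0.31), and tag-260 at 30.0, 25.7 and 28.8 CPM and at 17.9, 10.9 and 20.4 (-0.78, SE 0.35). In the deposited TPM values, the groups overlapped for tlp-1, F15D4.5 and tag-260 and not for samp-1.

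The 10 genes higher on ycdC with the lowest p included a prefoldin gene, a pair of proteasome genes and a pair of genes of the mitochondrial ribosome, and the other 5 belong to none of these. Exonic lengths of the 10 ran from 538 bases (mrpl-35) to 1505 bases (acdh-3). pfd-5, a subunit of the prefoldin chaperone (III, 7198151 to 7198884), stood at 46.9, 39.5 and 46.8 CPM in BW25113 and 92.0, 97.4 and 63.0 in ycdC (log2 fold change 0.92, SE 0.26). pbs-4, a beta subunit of the proteasome core (I, 3908747 to 3909701), stood at 115, 91.8 and 83.8 CPM and at 167, 210 and 149 (0.85, SE 0.26). pas-2, an alpha subunit of the same core (V, 10770368 to 10771351), stood at 102, 97.3 and 81.6 CPM and at 142, 201 and 166 (0.86, SE 0.27). In all 3 genes, replicate 3 of ycdC also stood above every control.

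A pair of genes of the mitochondrial ribosome followed. mrps-2 of the small subunit (V, 8465686 to 8467159) stood at 42.5, 38.6 and 31.3 CPM in BW25113 and 59.4, 84.0 and 66.5 in ycdC (0.90, SE 0.29). mrpl-35 of the large subunit (III, 3510237 to 3510974) stood at 12.7, 10.3 and 7.96 CPM and at 14.7, 20.7 and 19.0 (0.81, SE 0.25). The gap between groups was narrow for mrpl-35 and wider for mrps-2.

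The gene with the lowest p of all, W10D9.6 (II, 456083 to 457890), stood at 13.2, 10.9 and 8.94 CPM against 20.3, 29.3 and 16.2 (0.99, SE 0.25). mig-2, a Rac-like GTPase of cell migration, stood at 13.8, 12.9 and 9.35 CPM against 20.9, 30.8 and 17.4 (0.94, SE 0.29). popl-5, a subunit of ribonuclease P, had a log2 fold change of 0.80 (SE 0.25), acdh-3, an acyl-CoA dehydrogenase, 0.78 (SE 0.25), and F35G12.7 0.96 (SE 0.30). In all 10 of these genes replicate 2 of ycdC was the highest library, and W10D9.6, pfd-5, pbs-4, pas-2 and mrps-2 kept a log2 fold change of at least 0.70 without it.

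**Figure D4:**
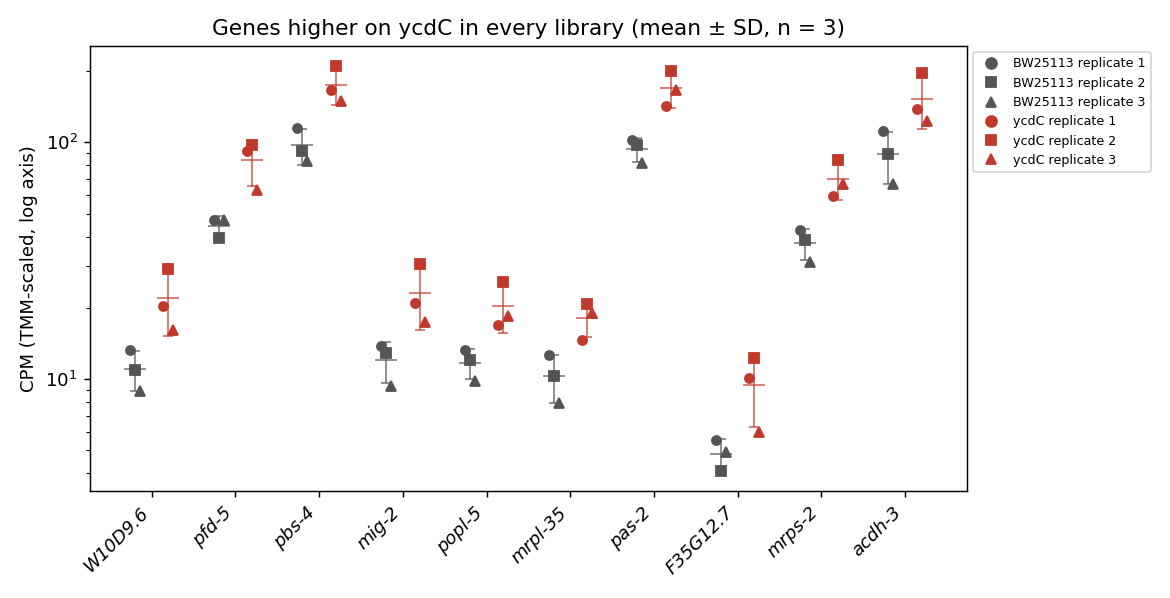
Level in CPM (log axis) of the 10 genes with the lowest p among those higher on ycdC, in each of the 3 BW25113 (grey) and 3 ycdC (red) libraries, with mean and SD. The groups do not overlap in any of the 10, which the choice of genes demanded, and the log2 fold changes lie between 0.78 and 0.99.

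Of 32 proteasome subunit genes, 5 were higher without overlap (15.6%, against 5.93% of all genes) and 0 lower, and the list's median log2 fold change was -0.19. Among all genes of 780 to 981 bases, the range that holds pbs-4 (801) and pas-2 (842), 8.42% lay higher. The other 3 of the 5 were pas-5, at 163, 130 and 105.7 CPM against 223, 310.1 and 194 (0.86, SE 0.32), pas-7 (0.63, SE 0.27) and rpt-4, an ATPase of the cap (0.49, SE 0.26). The summed level of the 32 genes was 7040, 7779 and 5987 CPM in BW25113 and 5583, 4310 and 8595 in ycdC. Without ycdC replicate 3, 6 members lay higher and 15 lower (18.8% and 46.9%, against 26.9% and 18.1% of all genes). With no scaling factors 15 lay higher and 0 lower (46.9% and 0%, against 13.6% and 0.327%).

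Genes of defence against oxidants lay higher at near the share of all genes. sod-2, a mitochondrial superoxide dismutase, stood at 60.9, 63.1 and 52.4 CPM in BW25113 and 82.6, 125 and 101 in ycdC (0.81, SE 0.27), and sod-4, the extracellular form, had a log2 fold change of 0.72 (SE 0.31). These were 2 of 28 antioxidant genes (7.14%, against 5.93% of all genes). Of 21 genes of the hypoxia list, 3 were higher without overlap (14.3%) and 0 lower. With ycdC replicate 3 left out, 7 genes of each list were higher (25% of the antioxidant and 33.3% of the hypoxia genes, against 26.9%). The 3 hypoxia genes were vhl-1, which marks the hypoxia factor HIF-1 for breakdown (0.74, SE 0.30), phy-2, a prolyl hydroxylase that modifies collagens (0.64, SE 0.34), and F22B5.4 (1.41, SE 0.54). phy-2 stood at 5.25, 5.39 and 6.20 CPM in BW25113 and 8.89, 8.86 and 8.50 in ycdC.

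Genes for the chemical modification of foreign molecules, immunity and protein turnover by ubiquitin were mostly of low level. F-box and MATH genes, adaptors of ubiquitin ligases, had a median log2 fold change of 0.59, beside 0.09 for all genes. Of 287 tested, 22 were higher without overlap (7.67%) and 1 lower (0.348%), against 5.93% and 2.03% of all genes. The mean log2 difference of the list from the BW25113 mean was 0.42, 0.64 and -0.22 in ycdC replicates 1, 2 and 3, so replicate 3 lay on the other side. Without ycdC replicate 3, 160 of the 287 (55.7%) were higher, against 26.9% of all genes. Among the members of higher level, btb-19 stood at 23.4, 18.0 and 15.6 CPM against 34.6, 43 and 24.9 (0.85, SE 0.38).

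The pals genes, a nematode family in which several members answer to infection by microsporidia and viruses, had the highest median of the 47 lists, at 0.96, yet 0 of 18 were higher without overlap. Their summed level was 26.1, 16.7 and 13.0 CPM in BW25113 and 45.2, 55.9 and 12.9 CPM in ycdC. Replicates 1 and 2 lay above every control and replicate 3 below. pals-23 stood at 7.64, 8.82 and 4.24 CPM against 14.2, 23.6 and 6.10 (1.09, SE 0.65), with replicates 1 and 2 above every control and replicate 3 within the control range.

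Of 39 genes for epidermal antimicrobial peptides, 5 were higher without overlap (12.8%, against 5.93% of all genes) and 0 lower. The count was 10 without ycdC replicate 3 (25.6%, against 26.9%). fip-2 stood at 6.70, 6.01 and 8.58 CPM in BW25113 and 9.79, 17.0 and 11.1 in ycdC (0.83, SE 0.41). nlp-27 stood at 42.7, 69.8 and 70.4 CPM against 78.4, 93.0 and 70.5, so that 1 control and 1 ycdC library all but met. The other 3, nlp-25, fipr-4 and cnc-11, were under 2.1 CPM in every library. Of 58 cytochrome P450 genes, 6 were higher (10.3%, against 5.93%) and 0 lower, and without ycdC replicate 3, 28 were higher (48.3%, against 26.9%). cyp-31A2, of a subfamily that makes lipids of the eggshell, stood at 64.3, 65.4 and 64.1 CPM against 79.3, 91.8 and 121 (0.59, SE 0.28), and its close copy cyp-31A5 at 16.1, 15.9 and 17.7 against 22.5, 23.5 and 32.0 (0.65, SE 0.29). Of 101 glutathione and glucuronosyl transferases, 9 were higher (8.91%, against 5.93%) and 1 lower (0.99%, against 2.03%). The higher count was 38 without ycdC replicate 3 (37.6%, against 26.9%) and 24 without BW25113 replicate 1 (23.8%, against 12%). Among them, gst-13 stood at 23.8, 15.5 and 12.4 CPM against 35.9, 51.3 and 25.06 (1.12, SE 0.49).

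**Figure D5:**
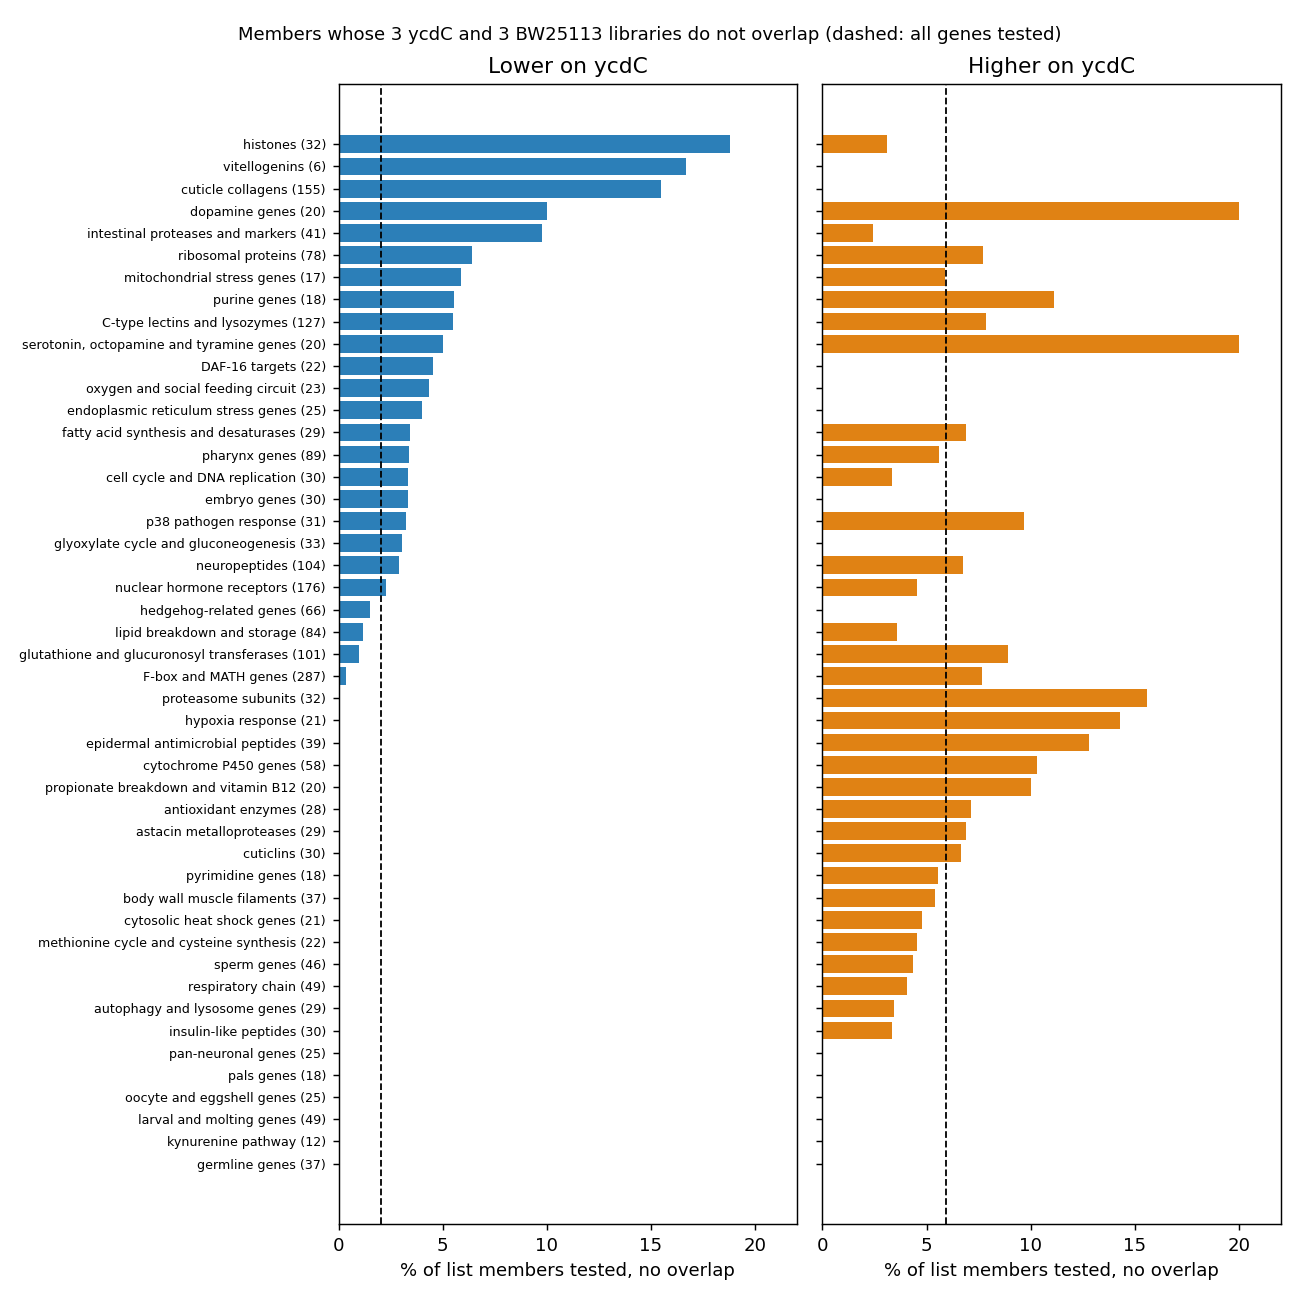
Share of the tested members of each of 47 gene lists (number tested in brackets) whose 3 ycdC libraries all lay below (left) or above (right) the 3 BW25113 libraries, in percent, beside the share of all 14696 genes (dashed lines, 2.03% and 5.93%). Cuticle collagens reach 15.5% on the left and 0% on the right; lists of about 20 genes reach 20% with 4 members.

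Because ycdC controls pyrimidine genes in the bacterium, a list of worm genes of pyrimidine synthesis, salvage and breakdown was looked up. Of the 18 tested, 0 had an unadjusted p under 0.05 in either direction and 1 was higher without overlap (5.56%, against 5.93% of all genes), and the median log2 fold change was 0.04. With no scaling factors 8 of 18 were higher (44.4%, against 13.6% of all genes). Without ycdC replicate 3, 6 were lower (33.3%, against 18.1%) and 2 higher (11.1%, against 26.9%). The 1 gene was upb-1, beta-ureidopropionase, the last step of uracil breakdown, at 28.0, 34.3 and 33.8 CPM in BW25113 and 37.3, 42.6 and 49.7 in ycdC (0.43, SE 0.23). The earlier steps of breakdown were dpyd-1, at 32.1 to 39.1 CPM against 22.5 to 43.9 (-0.06, SE 0.29), dhp-1 (0.46, SE 0.43) and dhp-2 (0.31, SE 0.27), and the groups overlapped in each.

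For synthesis, pyr-1, the enzyme of the first steps, stood at 31.4, 39.6 and 45.8 CPM in BW25113 and 28.0, 17.4 and 36.1 in ycdC (-0.52, SE 0.35). dhod-1 (0.26, SE 0.29), umps-1, the last enzyme on the way to UMP (-0.43, SE 0.49), and ctps-1, which makes CTP (0.04, SE 0.31), overlapped as well. For salvage, upp-1, uridine phosphorylase, stood at 57.5, 56.99 and 49.8 CPM against 47.2, 50.6 and 75.3 (0.08, SE 0.23). The cytidine deaminase genes cdd-1 (-0.45, SE 0.31) and cdd-2 (1.14, SE 0.83) had opposite signs. cdd-2 stood at 7.69, 6.50 and 2.64 CPM in BW25113 and 5.61, 26.2 and 5.15 in ycdC, and without replicate 2 its log2 fold change was -0.06.

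For deoxynucleotides, the ribonucleotide reductase subunits rnr-1 (-0.52, SE 0.48) and rnr-2 (0.52, SE 0.31), thymidylate synthase tyms-1 (0.13, SE 0.24) and dut-1, which removes dUTP (-0.38, SE 0.47), overlapped between the diets. So did ndk-1, a nucleoside diphosphate kinase and the only member over 500 CPM (-0.65, SE 0.54), D2030.2 (0.05, SE 0.38) and F19B6.1 (-0.03, SE 0.33). A standard error of 0.23 to 0.83 leaves changes of moderate size undetectable here.

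Of 18 purine genes, 2 were higher without overlap (11.1%, against 5.93% of all genes) and 1 lower (5.56%, against 2.03%). With ycdC replicate 3 left out, 5 were higher and 6 lower (27.8% and 33.3%, against 26.9% and 18.1%). atic-1, which carries out the last steps of purine synthesis, stood at 18.5, 13.5 and 17.6 CPM in BW25113 and 23.5, 31.1 and 24.7 in ycdC (0.68, SE 0.28). hprt-1, a purine salvage enzyme, stood at 16.8, 4.23 and 4.13 CPM against 20.8, 56.6 and 20.9 (1.97, SE 0.92), so both groups held 1 library far above its others. ampd-1, AMP deaminase, stood at 47.3, 50.3 and 73.5 CPM against 44.2, 23.3 and 47.2 (-0.58, SE 0.37). dhfr-1, dihydrofolate reductase, stood at 39.0, 37.4 and 35.7 CPM against 71.1, 68.1 and 50.6 (0.76, SE 0.31).

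Worms aggregate through a circuit of oxygen-sensing neurons and neuropeptide receptors, and the lists for behavior were read with this in view. Of 23 tested members of the list for oxygen sensing and social feeding, 0 were higher and 1 was lower without overlap (4.35%, against 2.03% of all genes), with 0 at an unadjusted p under 0.05. Leaving out ycdC replicate 3 gave 8 lower and 3 higher (34.8% and 13%, against 18.1% and 26.9%). The 1 gene was daf-5, a Ski-related partner in TGF-beta signaling, at 57.1, 60.2 and 52.6 CPM in BW25113 and 36.5, 14.7 and 48.7 in ycdC (-0.77, SE 0.54). Of 25 pan-neuronal genes, 0 separated the diets in either direction. Without ycdC replicate 1, 6 were lower and 1 higher (24% and 4%, against 5.16% and 10.4% of all genes). Without ycdC replicate 3, 4 were lower and 6 higher (16% and 24%, against 18.1% and 26.9%).

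Of 20 dopamine genes, 4 were higher and 2 lower without overlap (20% and 10%), and of 20 genes for serotonin, octopamine and tyramine, 4 were higher and 1 lower (20% and 5%), against 5.93% and 2.03% of all genes. At an unadjusted p under 0.05, 1 dopamine gene was higher and 0 lower, and 0 of the other list were either (4.29% and 0.354% of all genes). Without ycdC replicate 3, 6 dopamine genes were higher and 3 lower (30% and 15%, against 26.9% and 18.1% of all genes). In the other list 5 were then higher and 4 lower (25% and 20%). The lists share cat-4 and bas-1. cat-4, GTP cyclohydrolase, which makes the cofactor for both dopamine and serotonin synthesis, stood at 17.2, 11.3 and 17.4 CPM in BW25113 and 30.8, 32.7 and 19.1 in ycdC (0.85, SE 0.42). bas-1, the decarboxylase of both pathways, stood at 10.3, 10.5 and 10.6 CPM against 11.4, 14.3 and 18.3 (0.48, SE 0.30). tbh-1, which makes octopamine from tyramine, stood at 78.6, 91.7 and 80.04 CPM against 129, 109 and 123.5 (0.53, SE 0.39). cat-4 is also expressed in the epidermis. The dopamine transporter gene dat-1 stood at 0.466, 0.613 and 0.672 CPM against 0.357, 0.258 and 0.392, under 1 CPM throughout. The remaining members without overlap were the methyltransferase gene comt-2, the amine oxidase gene amx-3 and the channel gene asic-1, all under 2.2 CPM, the exocytosis gene aex-1 (0.53, SE 0.41) and the serotonin receptor gene ser-4 (-0.51, SE 0.35).

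The ycdC libraries were also set against the mean of the 9 other mutants, which leaves out the controls that all mutant comparisons share. edgeR called 0 of 14696 genes (0%), with a lowest adjusted p of 0.0920, and at an unadjusted p under 0.05, 1872 were higher (12.7%) and 919 lower (6.25%). Against the mean of the 7 mutants other than torY and yccU, edgeR also called 0, and its lowest adjusted p was 0.336. At an unadjusted p under 0.05, 1393 were then higher and 382 lower. DESeq2 called 157, of which 65 were higher and 92 lower. The edgeR count rested on 1 library: without ycdC replicate 3 it was 905, of which 878 were higher and 27 lower. mtl-1, a metallothionein, which binds metal ions, had the largest log2 fold change among the 6 genes with the lowest p (3.15, SE 0.63). It stood at 63.3, 70 and 3.92 CPM in ycdC and 22.7, 10.2 and 0.930 in BW25113, so replicate 3 lay far below the other two. pfd-5 was higher than in the other mutants by 0.83 (SE 0.18), pbs-4 by 0.66 (SE 0.18) and mrps-2 by 0.73 (SE 0.20), all with an edgeR adjusted p between 0.0920 and 0.10. For cpr-4 the value was 0.00 (SE 0.30).

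Of the 24 abundant collagens, 5 were lower than in the other mutants at an unadjusted p under 0.05 and 0 were higher, with a median log2 fold change of -0.57. Over all genes 6.25% were lower and 12.7% higher, with a median of 0.02. col-159 had the lowest p of them (-1.74, SE 0.68, edgeR adjusted p = 0.164). Over all 155 collagens the median was -1.32 against the 9 mutants and -0.85 when torY and yccU were left out of them. Sperm genes lay lower still in both, at -1.50 and -1.22. Embryo genes had medians of 0.68 and 0.45, and cuticlins 0.57 and 0.66. F-box and MATH genes had a median of 0.80 against the 9 mutants and 0.71 against the 7, and pals genes 0.66 against both.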

How the data were processed

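The authors deposited, for each library, an estimated count of reads and a TPM value for 18811 genes, per the file headers. The submitters' processing notes name HISAT, StringTie, Bowtie2 and WBcel235, with no version and no role for any of them. Between 7.78% and 10.0% of the expected counts per library in the 6 libraries were not whole and were rounded. Genes passing filterByExpr were fitted in edgeR 4.0.16 (quasi-likelihood, TMM factors, R 4.3.3) over all 33 libraries by diet, with Benjamini-Hochberg adjustment over 14696 genes. Standard errors (SE) were taken from the fold change and F of each gene (size of the log2 fold change over the root of F). The deposited TPM values entered no test. DESeq2 1.42.0, RLE scaling, no filter, no scaling factors, the 6 libraries alone, a replicate block and leaving out each library were alternatives. The scripts were tested on simulated data.

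Of the genes tested, 14611 (99.4%) matched the Ensembl annotation of WBcel235, which gave positions and exonic lengths. The comparison and the 47 lists were chosen with earlier results of these data known. Named were the 10 genes with the lowest p in each direction with a mean of at least 5 CPM and no overlap, and every pyrimidine gene and vitellogenin. Of the leading members without overlap of each list at an unadjusted p under 0.05, some were named and others were left out. Other genes were named after their values were seen. No pair of the 6 libraries looked like 1 library deposited more than once (smallest chi-square per degree of freedom 42.5). No sequences are shown.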

Additional observations from a re-analysis of the deposited data

How the results depend on the processing

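The comparison of ycdC with BW25113 gave 0 calls under RLE scaling, no filter, DESeq2, the 6 libraries alone and no scaling factors, and 0 to 1 when 1 library was left out. The labels give the diets the same replicate numbers. The deviations of same-numbered ycdC and BW25113 libraries had mixed correlations, at 0.18, -0.31 and 0.27. Libraries of unlike number ran from -0.46 to 0.38, so the numbers were not taken to pair them. The fit with the replicate block gave 0 calls and 712 genes at an unadjusted p under 0.05. The contrast with the other mutants gave 0 calls in edgeR but 157 in DESeq2, and 0 to 905 with 1 library left out; the cause was not tested. Genes without overlap numbered 871 higher and 298 lower, 502 and 173 among genes of at least 5 CPM, where fewer were counted, 1992 and 48 with no scaling factors, and 1055 to 3947 and 499 to 2664 with 1 library left out, where fewer values must separate. Among named genes whose log2 fold change exceeded its standard error, cdd-1 changed sign with no scaling factors (0.19) and cdd-2 without ycdC replicate 2 (-0.060; -0.060 to 1.49 with 1 library left out). A further 7 named genes, all of the pyrimidine list and with changes smaller than their standard errors, changed sign under at least 1 setting. Of the list medians recomputed relative to all genes, 520 moved by less than the spread between replicates and 44 by more. Totals were 22.0 M to 22.7 M, and the median standard error was 0.48.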

Other observations

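C-type lectins and lysozymes, secreted proteins that include antibacterial factors, lay on both sides: of 127 tested, 10 were higher and 7 lower on ycdC without overlap (7.87% and 5.51%, against 5.93% and 2.03% of all genes). Among the 46 with a mean of at least 5 CPM, 1 was higher and 2 were lower (2.17% and 4.35%, against 6.44% and 2.22%). When ycdC replicate 3 was left out, 24 of 127 were higher and 27 lower (18.9% and 21.3%, against 26.9% and 18.1%). clec-190 stood at 2.80, 1.65 and 1.91 CPM in BW25113 and 7.00, 8.03 and 3.02 in ycdC (log2 fold change 1.51, SE 0.53). clec-15 was near 0 in BW25113, at 0.0583, 0.184 and 0.0517 CPM, and at 1.04, 1.15 and 1.29 CPM in ycdC. clec-205 lay the other way, at 5.48, 9.01 and 5.48 CPM against 3.96, 2.07 and 5.26 (-0.83, SE 0.43).

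Neuropeptide genes lay close to the share of all genes, with 7 of those tested higher (6.73%) and 3 lower (2.88%). Without ycdC replicate 3, 32 were lower (30.8%, against 18.1%) and 11 higher (10.6%, against 26.9%), and under RLE scaling 3 were higher (2.88%, against 5.08%). Among those higher, nlp-47 stood at 11.3, 8.03 and 9.35 CPM in BW25113 and 12.9, 16.6 and 11.5 in ycdC, and flp-7 at 2.39, 2.64 and 2.58 against 3.25, 4.30 and 3.80. Among those lower, flp-33 stood at 14.1, 12.5 and 12.5 CPM in BW25113 and 5.36, 7.00 and 12.0 in ycdC, and flp-2 at 9.09, 6.62 and 6.46 against 2.93, 4.45 and 5.65. lbp-2, a fatty acid binding protein, stood at 175, 158 and 107 CPM against 288, 401 and 182 (0.99, SE 0.37). bec-1, the worm's beclin of autophagy, stood at 13.8, 14.0 and 11.5 CPM against 20.5, 26.4 and 19.7 (0.77, SE 0.32). The germline (37 tested), oocyte (25), larval molting (49) and kynurenine (12) lists had 0 members without overlap in either direction, against 5.93% and 2.03% of all genes. Without ycdC replicate 3 the lower shares were 29.7%, 64%, 4.08% and 16.7%, against 18.1% of all genes. The higher shares were 13.5%, 0%, 20.4% and 50%, against 26.9%.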
